A study of Yarrowia lipolytica with 9 samples.

Results

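The genes described here are POX1 to POX6, which encode the acyl-CoA oxidases of the oleaginous yeast Yarrowia lipolytica. They were picked by transcript accession, as 6 of the 6366 features in the deposited tables. The rule uses no measured value, but the family was proposed with earlier results of these data known, so the p-values below are adjusted over all tested features and never over the family alone. They are POX1 (XM_504703.1, YALI1_E38912g), POX2 (XM_505264.1, YALI1_F14495g), POX3 (XM_503244.1), POX4 (XM_504475.1, YALI1_E32603g), POX5 (XM_502199.1, YALI1_C32886g) and POX6 (XM_503632.1, YALI1_E07899g). The coding length implied by counts and FPKM was 2034 bp for POX1, 2103 bp for POX2 and POX3, 2106 bp for POX4, 2100 bp for POX5 and 2070 bp for POX6. All 6 lengths lay in the narrow range set as a check for acyl-CoA oxidases, which a gene of another kind can also meet. The POX names rest on the accessions, since no annotation at hand gives them. All 6 genes passed the expression filter that left 6147 features for testing.

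RNA was sequenced from 3 engineered strains, yl_10, yl_11 and yl_12, with 3 libraries each. All 3 strains share the host Y. lipolytica ATCC 201249 and carry introduced heterologous genes, and all cultures were grown in flasks for 72 h at 28 °C and 250 rpm. The labels connect the series to lycopene yield but give no yield for a strain, name no control strain, no inserted gene and no carbon source, and do not say whether a strain is 1 clone. Each pair of strains was therefore compared. Nothing shows whether the 3 libraries of a strain are separate cultures. The p-values set strain differences against the spread between libraries, which may be smaller than that between cultures. A single library of each strain resembled its fellows least over all features, namely replicate 3 in yl_10, replicate 1 in yl_11 and replicate 3 in yl_12. These are called the libraries that stand apart, and results that rest on them are given with and without them.

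Acyl-CoA oxidases catalyse the first step of β-oxidation in the peroxisome. They introduce a double bond into a fatty acyl-CoA and pass the electrons to oxygen, which yields hydrogen peroxide that catalase removes. The later steps release acetyl-CoA, which is also the building block of fatty acids, sterols and carotenoids such as lycopene. Y. lipolytica grows on fats and alkanes and has a family of these oxidases with different substrate preferences. Aox2, the product of POX2, prefers long-chain acyl-CoA, and Aox3, from POX3, prefers short-chain acyl-CoA. POX1 and POX6 have been tied to the oxidation of dicarboxylic acids. The POX2 promoter is known to be induced by oleate and is used to drive introduced genes in this yeast.

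POX2 and POX3 supplied nearly all of the POX transcript, and the order of levels was POX2, POX3, POX4, POX5, POX6, POX1 in 9 of 9 libraries. Levels are given as FPKM, which corrects for transcript length and library total. The mean over the 9 libraries was 442 FPKM for POX2 and 219.9 FPKM for POX3, above 94.2% and 87.8% of the tested features. POX4 followed with 17.4 FPKM, POX5 with 9.92 FPKM and POX6 with 6.56 FPKM, above 31.4%, 20.5% and 14.5% of the features. POX1 was close to the lower end, at 0.688 FPKM, with 0.748% of the tested features below it. Every member had reads in every library, from 10 counts at the lowest for POX1 to 17259 counts at the highest for POX2.

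Within each strain the libraries of one gene lay apart from those of the next gene in the order, with 1 exception. POX5 and POX6 overlapped in yl_12, where their means were 1.35-fold apart. The step from POX3 to POX4 was 12.7-fold in yl_10, 11.9-fold in yl_11 and 13.5-fold in yl_12, and the step from POX6 to POX1 was 9.92-fold, 10.2-fold and 8.71-fold. POX2 exceeded POX3 by 2.48-fold in yl_10 and 2.12-fold in yl_11, but by only 1.33-fold in yl_12.

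**Figure D1:**
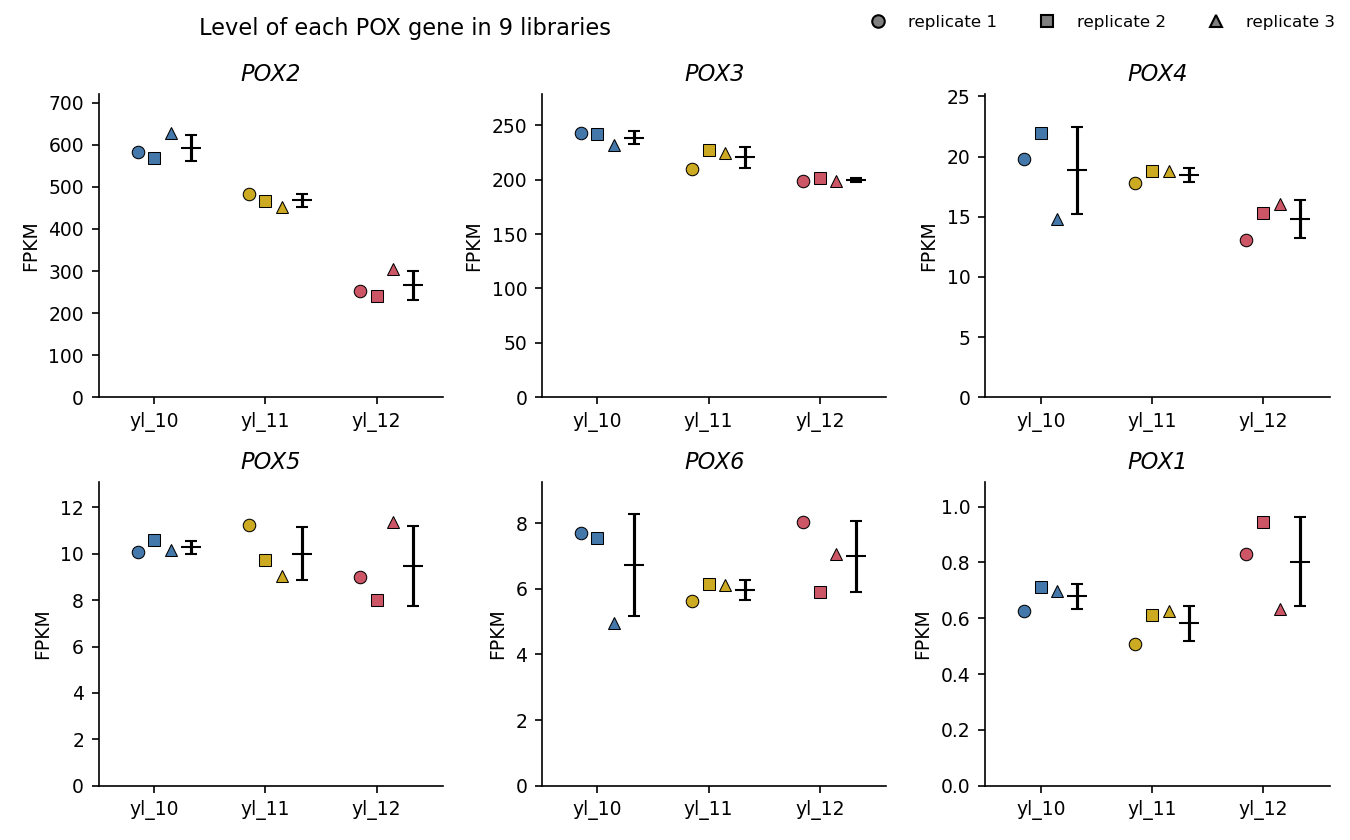
FPKM of each POX gene (vertical axes, starting at 0, a different scale for each gene) in the 9 libraries, by strain. Points are single libraries, with the symbol giving the replicate number, and the bar beside them is the mean with the SD of 3 libraries. POX2 goes from 593 FPKM in yl_10 to 266 FPKM in yl_12 with no overlap between strains, whereas POX5 overlaps among all 3 strains.

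POX2 was the member that differed most between the strains. In yl_10 it was at 582, 569.7 and 628 FPKM in replicates 1, 2 and 3. In yl_11 the values were 484, 467 and 453 FPKM, and in yl_12 they were 252, 241 and 304 FPKM. Every library of yl_10 was above every library of yl_11, and every library of yl_11 was above every library of yl_12. The means were 593 ± 30.7 FPKM (SD, n = 3) in yl_10, 468 ± 15.5 FPKM in yl_11 and 266 ± 33.7 FPKM in yl_12. Counting error was small beside these differences, since the library with the lowest level, yl_12 replicate 2, held 6311 counts of POX2, whose 95% Poisson interval corresponds to 235 to 247 FPKM. Such intervals cover counting error only. In RNA of a whole culture, fewer cells with the transcript and less of it per cell cannot be told apart.

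In the test across all features, POX2 was lower in yl_12 than in yl_10 by a log2 fold change of -1.11 (SE 0.088, 95% interval -1.30 to -0.91, adjusted p = 2.22e-05 in edgeR). This corresponds to a level 2.15-fold higher in yl_10. POX2 ranked 64 of 6147 features by the size of this change and 23 by its p-value. Between yl_12 and yl_11 the log2 fold change was -0.79 (SE 0.087, 95% interval -0.98 to -0.59, adjusted p = 0.000383 in edgeR), and it ranked 83 by size. Both calls held in each of the 18 alternatives tried for that comparison. The smaller difference between yl_11 and yl_10, a log2 fold change of -0.32 (SE 0.086, 95% interval -0.51 to -0.13), missed the threshold of 0.05 with an adjusted p of 0.066 in edgeR. It passed in 5 of 18 alternatives, among them the fit without yl_12 replicate 3 (adjusted p = 0.00403 in edgeR) and DESeq2 (0.0094). That library stands apart in its strain, and leaving it out lowers the spread shared by the fit.

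POX3 followed the same order of strains with much smaller steps. It was at 243, 242 and 232 FPKM in replicates 1, 2 and 3 of yl_10. The libraries of yl_11 were at 209.6, 228 and 225 FPKM, and those of yl_12 were at 199, 202 and 199 FPKM. The strains did not overlap, but the 95% Poisson intervals of the nearest libraries did. These were 224 to 240 FPKM in yl_10 replicate 3 and 222 to 233 FPKM in yl_11 replicate 2. They were 205 to 214 FPKM in yl_11 replicate 1 and 196 to 207 FPKM in yl_12 replicate 2. The means were 239 ± 6.29, 221 ± 9.72 and 200.0 ± 1.63 FPKM (SD, n = 3 each). Their coefficients of variation were 2.63%, 4.40% and 0.817%. The 3 values of yl_12 all lay inside the interval of replicate 2, so their small SD is below counting error. The log2 fold change of yl_12 against yl_10 was -0.20 (SE 0.043, 95% interval -0.30 to -0.11, adjusted p = 0.00682 in edgeR). That change was larger than those of 70.6% of the tested features, against 99.0% for POX2. POX3 did not pass in yl_11 against yl_10 (log2 fold change -0.092, SE 0.043, adjusted p = 0.26 in edgeR) or in yl_12 against yl_11 (-0.11, SE 0.043, adjusted p = 0.158). It passed in the latter without the 3 libraries that stand apart (log2 fold change -0.15, adjusted p = 0.000233). Leaving out the least similar library of each strain lowers the spread by construction.

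Counted over the family, 2 of the 6 genes, POX2 and POX3, differed among the 3 strains in the F test of edgeR, where 15.0% of all tested features did. The adjusted p was 5.57e-05 for POX2 and 0.0186 for POX3. The call of POX3 was lost without yl_10 replicate 1 (adjusted p = 0.0669), yl_10 replicate 2 (0.0527), yl_12 replicate 1 (0.0783) or yl_12 replicate 2 (0.0648). Strain means fell from yl_10 through yl_11 to yl_12 in 4 genes, POX2 to POX5, an order that 30.1% of the tested features showed. Complete separation of all libraries in that order was seen in POX2 and POX3, against 3.60% of the tested features. For POX3 the nearest libraries of neighbouring strains lay within counting error of each other.

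In yl_12 against yl_10, 2 of the 6 members passed and both were lower in yl_12, against 14.8% of all features called in either direction and 7.81% called lower. The libraries of these same 2 genes did not overlap between the strains, as was the case for 34.1% of the features. The median log2 fold change of the 6 members was -0.13, beside -0.0037 over all tested features, and the members ranged from -1.11 to 0.31. In yl_12 against yl_11 only POX2 passed, where 7.04% of the features did. Libraries did not overlap for POX1, POX2, POX3 and POX4, and 29.4% of the features shared this. The median of the members was -0.083, beside -0.0015 over all tested features, with a range from -0.79 to 0.51.

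In yl_11 against yl_10 none of the 6 passed in edgeR, where 4.16% of the features did. At an unadjusted p below 0.05 in edgeR there was 1 member, POX2, beside 19.5% of all tested features. DESeq2 called 1 member, POX2, and 6.89% of the features it gave an adjusted p, and limma called 0 members and 3.17% of the features. All 6 log2 fold changes were below 0, as were those of 50.1% of all tested features. The 6 values ran from -0.32 for POX2 to -0.0042 for POX5, with a median of -0.13 beside -0.00036 for all features. Those of POX4 and POX5 turned above 0 when single libraries were left out. The libraries of POX1, POX2 and POX3 did not overlap, against 27.9% of the features. For POX1 the margin was 0.626 against 0.628 FPKM, and it was lost when FPKM was divided by the composition factor. The comparisons with yl_10 share its libraries, and those with yl_12 share the libraries of that strain, so the 3 sets of values are not independent.

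**Figure D2:**
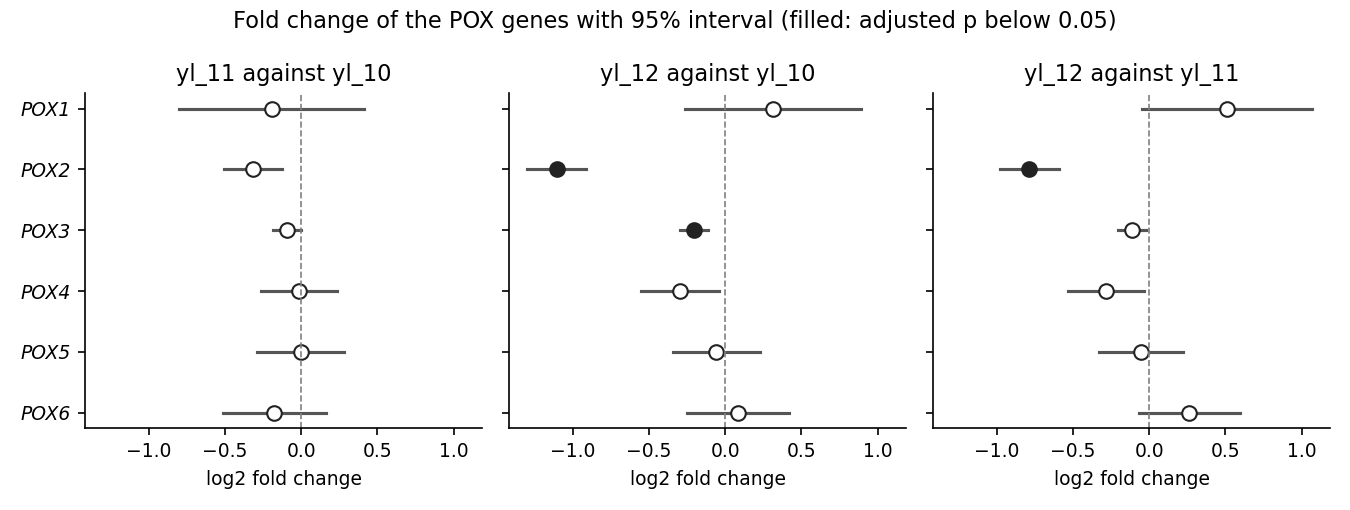
Log2 fold change of each POX gene (horizontal axis, first strain over second) in the 3 comparisons, with the 95% interval from edgeR as a line. Filled points have an adjusted p below 0.05, which applies to POX2 and POX3 in yl_12 against yl_10 and to POX2 in yl_12 against yl_11.

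POX4, the third in level, was at 19.8, 22.0 and 14.8 FPKM in replicates 1, 2 and 3 of yl_10. Its values were 17.8, 18.8 and 18.8 FPKM in yl_11, and 13.0, 15.3 and 16.1 FPKM in yl_12. The yl_12 libraries were below all those of yl_11, but they overlapped with yl_10 because of the low value in yl_10 replicate 3. The log2 fold change of yl_12 against yl_10 was -0.30 (SE 0.12, 95% interval -0.55 to -0.042, adjusted p = 0.114 in edgeR). Without yl_10 replicate 3 it was -0.42 and passed (adjusted p = 0.0124), and without all 3 libraries that stand apart it was -0.48 (adjusted p = 2.39e-05). Against yl_11 the value for yl_12 was -0.28 (SE 0.11, adjusted p = 0.182 in edgeR). It passed only without the 3 libraries that stand apart (-0.38, adjusted p = 0.000936). Leaving out yl_10 replicate 3 removes the low POX4 value itself. Leaving out the least similar library of each strain lowers the spread by construction, so these passes do not count as calls of POX4.

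POX5 passed in none of the 3 comparisons. It was at 10.1, 10.6 and 10.2 FPKM in replicates 1, 2 and 3 of yl_10, at 11.2, 9.73 and 9.05 FPKM in yl_11, and at 9.02, 8.02 and 11.4 FPKM in yl_12. The lowest and the highest of the 9 values both came from yl_12. Its log2 fold change was -0.059 (SE 0.13) in yl_12 against yl_10, with a 95% interval of -0.34 to 0.23. An interval of this width leaves room for a change between -21.2% and 17.1%. The adjusted p in the F test was 0.928 in edgeR.

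POX6 was at 7.71, 7.56 and 4.94 FPKM in replicates 1, 2 and 3 of yl_10. The values were 5.62, 6.15 and 6.11 FPKM in yl_11 and 8.05, 5.89 and 7.06 FPKM in yl_12. All 3 strains overlapped, and the spread between libraries was widest in yl_10, with a coefficient of variation of 23.1%. The log2 fold change was 0.087 in yl_12 against yl_10 (SE 0.15, 95% interval -0.25 to 0.42) and 0.26 in yl_12 against yl_11 (SE 0.15, 95% interval -0.065 to 0.59). Neither passed, with adjusted p of 0.775 and 0.353 in edgeR.

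POX1, the scarcest member, was counted 18, 12 and 10 times in replicates 1, 2 and 3 of yl_10, 17, 15 and 14 times in yl_11, and 20, 24 and 16 times in yl_12. This gave 0.628, 0.710 and 0.699 FPKM in yl_10, 0.509, 0.610 and 0.626 FPKM in yl_11, and 0.831, 0.946 and 0.631 FPKM in yl_12. The yl_12 libraries were all above those of yl_11, by a margin of 0.626 to 0.631 FPKM. With so few reads, the 95% Poisson interval of the 10 counts in yl_10 replicate 3 ran from 0.335 to 1.29 FPKM, which covers all 9 values. The log2 fold change of yl_12 against yl_11 was 0.51 (SE 0.26, 95% interval -0.049 to 1.07, adjusted p = 0.283 in edgeR). The interval covers changes from -3.36% to 109%, and no strain difference in POX1 was detected.

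Added over the family, the POX transcripts were at 863, 853 and 890.3 FPKM in replicates 1, 2 and 3 of yl_10. The sum was 729, 729.7 and 713 FPKM in yl_11 and 482, 473 and 538 FPKM in yl_12. The strains did not overlap, with means of 869 ± 19.4, 724 ± 9.51 and 498 ± 35.5 FPKM (SD, n = 3 each). Because the genes were chosen with earlier results of these data known, the sum carries no test. It fell by 42.7% from yl_10 to yl_12, and POX2 made up 88.3% of the missing 371 FPKM, with POX3 at 10.5%. From yl_10 to yl_11 the sum fell by 16.7%, and POX2 made up 86.3% of that difference.

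The makeup of the family moved with it. POX2 took 68.3 ± 1.99% of the summed POX FPKM in yl_10, 64.7 ± 1.54% in yl_11 and 53.2 ± 2.89% in yl_12. The share of POX3 was 27.5 ± 1.30%, 30.5 ± 1.53% and 40.3 ± 2.97%, although its own level was lowest in yl_12. A ratio of POX2 to POX3 needs no scaling between libraries, and it was 2.40, 2.35 and 2.71 in replicates 1, 2 and 3 of yl_10. It was 2.31, 2.05 and 2.01 in yl_11, and 1.27, 1.19 and 1.53 in yl_12. The yl_12 libraries lay below all others, and those of yl_11 lay below those of yl_10. POX1, POX4, POX5 and POX6 together were at 36.5 ± 5.29, 35.0 ± 0.352 and 32.1 ± 2.67 FPKM, and their ranges overlapped between every pair of strains.

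**Figure D3:**
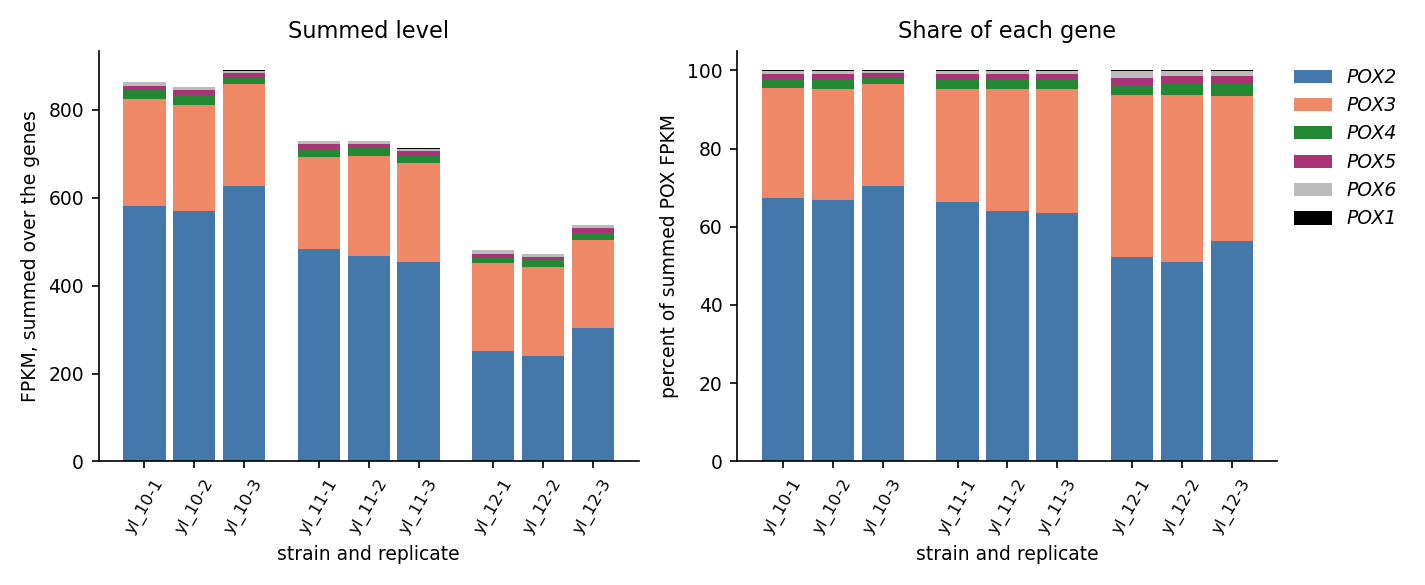
Summed FPKM of the 6 POX genes (left, vertical axis in FPKM) and the share of each gene in that sum (right, vertical axis in percent) for the 9 libraries, named by strain and replicate. Colours mark the genes. The POX2 part shrinks from 68.3% of the sum in yl_10 to 53.2% in yl_12, while the POX3 part grows from 27.5% to 40.3%.

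In each POX gene, the library that stood apart in its strain was set beside the other 2. Any 1 of 3 libraries is often the highest or the lowest. The share over all features was not taken, so the positions are only a description. POX2 was highest in that library in 3 of 3 strains, by 0.12, 0.074 and 0.30 on the log2 scale over the mean of the other 2 in yl_10, yl_11 and yl_12. POX5 was highest there in 2 strains, with log2 ratios of 0.26 in yl_11 and 0.42 in yl_12. POX1, POX3 and POX6 were each lowest there in 2 strains and between the others in the remaining strain. The log2 ratios of the lowest values were -0.28 and -0.49 for POX1 in yl_11 and yl_12, and -0.066 and -0.11 for POX3 in yl_10 and yl_11. Those of POX1 rest on only 10 to 24 counts per library. For POX6 they were -0.63 in yl_10 and -0.13 in yl_11. POX4 went both ways, at -0.49 in yl_10, -0.078 in yl_11 and 0.18 in yl_12. Without these 3 libraries the log2 fold change of POX2 was -1.17 in yl_12 against yl_10, -0.87 in yl_12 against yl_11 and -0.29 in yl_11 against yl_10. The last had an adjusted p of 2.66e-10 in edgeR, but leaving out the least similar library of each strain lowers the spread by construction.

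No other POX gene was among the 3 features most like POX2 in pattern and size of change. Likeness was taken as the root mean square difference of log2 CPM over the 9 libraries, each feature centred on its own mean, among 5050 other features with at least 10 CPM. The nearest was XM_504109.1 (YALI1_E22238g, coding length 1245 bp), at 0.102. Its level was 1113 ± 64.4 FPKM in yl_10, 865 ± 43.1 FPKM in yl_11 and 566 ± 112 FPKM in yl_12 (SD, n = 3 each). Next came XM_503871.1 (YALI1_E15583g) at 0.121, with means of 319, 272 and 165 FPKM, and XM_503410.1 at 0.122, with means of 4517, 4225 and 2226 FPKM. For comparison, POX4 was at 0.393 from POX2 and POX3 at 0.403, ranking 398 and 485 among these features. POX5 and POX6 ranked 1089 and 4538, and POX1, below 10 CPM, was not among them. The distance is not scaled, so a gene with a smaller change lies far from POX2 even with the same order of strains. The SD of log2 CPM over the 9 libraries was 0.508 for POX2 and 0.093 for POX3.

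The features nearest to POX3 were XM_503604.1 (YALI1_E07040g) at 0.0227, XM_500094.1 (YALI1_A15497g) at 0.0312 and XM_503548.1 (YALI1_E05584g) at 0.0315. XM_503604.1 had means of 157, 144 and 129 FPKM in yl_10, yl_11 and yl_12. The distance is a description of 9 shared libraries and carries no test.

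**Figure D4:**
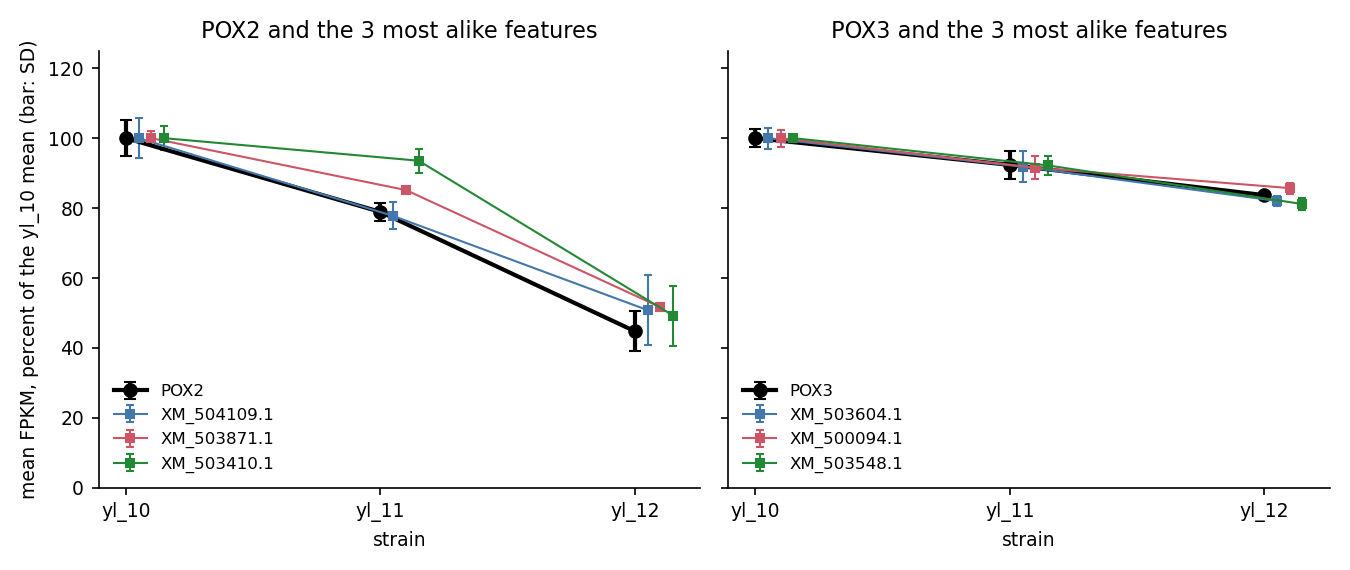
Mean FPKM by strain, as percent of the yl_10 mean (vertical axis, bars are the SD of 3 libraries), for POX2 (left) and POX3 (right) in black and the 3 features with the smallest distance to each in colour. POX2 and XM_504109.1 both step down in yl_11 and again in yl_12, while POX3 and its nearest features decline only slightly.

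Genes next to the POX genes were examined for the 5 members with a locus tag in the reference table, taking the next 2 tested genes on either side in the gene order of that table. Genes without a tested feature may lie between them. None of the 4 around POX2 passed in edgeR in any of the 3 comparisons. In yl_12 against yl_10, the next tested gene on each side, YALI1_F14409g and YALI1_F14542g, had log2 fold changes of -0.22 (SE 0.083, adjusted p = 0.0947) and -0.37 (SE 0.16, adjusted p = 0.151), against -1.11 for POX2. Of all 20 neighbours, 3 passed in that comparison, near the 14.8% of all features. Each was the second tested gene away, YALI1_E38810g from POX1 (log2 fold change 0.55), YALI1_C32823g from POX5 (-0.64) and YALI1_E07950g from POX6 (0.24). In yl_11 against yl_10, 1 of the 20 passed, and in yl_12 against yl_11, 2 did, beside 4.16% and 7.04% of all features. YALI1_E07920g, the next tested gene to POX6, was among them both times, with log2 fold changes of -0.58 and 0.53.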

How the data were processed

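Read counts, as whole numbers without normalisation, and FPKM values were deposited by the authors in separate tables. The deposited FPKM equal the count divided by length and library total. The submitters' processing notes list HTSeq 0.6.1 as well as DESeq 1.18.0. Not given in the sources used here are the aligner, the build, the use of strand and the handling of reads that match several POX genes. Library totals ranged from 7035777 to 16424183 counts, and the 6 genes took 11985 to 25592 of them.

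Counts of all 9 libraries were tested in 1 quasi-likelihood fit of edgeR 4.0.16 (R 4.3.3) with TMM factors (0.970 to 1.03), the default filter, robust estimates and strain as the only term. P-values were adjusted over 6147 features by the Benjamini-Hochberg method, with a threshold of 0.05, and the test was checked on simulated data. Alternatives used DESeq2 1.42.0, limma 3.58.1 on log2(FPKM + 1) or log2(FPKM + 0.1), other scalings, no filter, a replicate block and fewer libraries. No 2 libraries of a strain agreed within counting noise (chi-square per degree of freedom 1.72 to 15.4).

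The genes and lists were chosen with earlier results of these data known. All 6 members are named, with the 3 nearest features of each member called in the F test and the next 2 tested genes on either side. Of 21 other peroxisome and β-oxidation genes looked up in the RefSeq gene table of Y. lipolytica CLIB89, by name or older locus tag, 0 matched. That table gives no products or older locus tags, so the lookup could not identify them. A feature given here only by accession or tag may be among them. Accessions were matched to that table without their version, which gave a tag for 5 of the 6 members. Its coordinates served only to put genes in order.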

Additional observations from a re-analysis of the deposited data

How the results depend on the processing

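The calls of POX2 and POX3 in yl_12 against yl_10 and of POX2 in yl_12 against yl_11 held in all 18 alternatives for each. The number of POX genes called in yl_11 against yl_10 was 0 and became 1 with library totals only, with DESeq2, with only the 6 libraries compared and without the 3 libraries that stand apart. In yl_12 against yl_11 it went from 1 to 3 without those 3 libraries. With 1 library left out at a time, it was 0 to 1 in yl_11 against yl_10 and 1 to 3 in the F test, where the main count was 2.

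Over all features, the counts of 256, 910 and 433 calls in yl_11 against yl_10, yl_12 against yl_10 and yl_12 against yl_11 became 1235, 1920 and 1514 without the 3 libraries that stand apart, and the 920 of the F test became 2357. With 1 library left out they ranged from 63 to 519, from 613 to 989, from 190 to 718 and from 547 to 1232. The replicate number as a block gave 151 calls in yl_11 against yl_10 in place of 256 and changed no POX call. The deviations of libraries with the same number correlated at -0.35 to 0.27, and those of libraries with different numbers at -0.34 to 0.49. Of the 9 libraries, 0 correlated best with its own number. This cannot decide whether the number marks a shared batch. The libraries that stand apart are numbered 3, 1 and 3, and each shifts the deviations of its whole strain. Their own deviations were alike across strains. They correlated at 0.37 between yl_10 and yl_11, 0.27 between yl_10 and yl_12 and 0.49 between yl_11 and yl_12. The cause of this likeness was not tested.

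Directions that turned belonged to genes that were not called. With 1 library left out the log2 fold change in yl_11 against yl_10 ran from -0.13 to 0.090 for POX4 and from -0.11 to 0.069 for POX5. For POX5 it ran from -0.21 to 0.053 in yl_12 against yl_10 and from -0.22 to 0.058 in yl_12 against yl_11. For POX6 in yl_12 against yl_10 it ran from -0.061 to 0.20, and was -0.079 without the 3 libraries that stand apart. Apart from the effect of fewer or more alike libraries, the cause was not tested. Depth limits POX1, with 10 to 24 counts per library.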
